A study of Saccharomyces cerevisiae with 4 samples.

Results

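The protein genes of the small (40S) subunit of the cytosolic ribosome were compared between yeast expressing AAE13 and a vector control. Members were the probes whose gene symbol is RPS followed by a number and an optional A or B. They numbered 55 of 4072 named genes: both copies of 24 duplicated genes and 7 of the single-copy genes.

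The data were 4 two-colour arrays of Saccharomyces cerevisiae RNA. Each array set 1 of 4 replicate cultures transformed with pAG305GPD-AAE13 against 1 of 4 transformed with pAG305GPD-ccdB. AAE13 is a plant malonyl-CoA synthetase, driven here by the strong GPD promoter of an integrating LEU2 vector, and ccdB is the cassette of the empty vector, so that the controls carry the same backbone and marker. Both strains were shaken at 30 °C in SD drop-out medium and fed malonate to 0.2 mM once the OD600 was 0.1, and RNA was taken in mid-log phase. AAE13 RNA was labelled with Cy5 on arrays 1 and 3 and with Cy3 on arrays 2 and 4. The labels call the cultures biological replicates. No source used here gives the parent strain or says whether each strain came from 1 transformant.

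The small subunit binds mRNA and decodes it, and its proteins hold the folded 18S rRNA in place. Yeast makes most of these proteins from 2 gene copies, A and B, whose products are often nearly or fully identical. Transcription of the whole family follows growth through Rap1, Fhl1, Ifh1 and Sfp1, under the TORC1 and protein kinase A pathways, while a few copies are also held in check after transcription by the very protein they encode.

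Values are log2 ratios with each array centred on the median of all its probes, so a negative value means lower than the typical probe of that array. No source used here states the direction of the ratios or the log base. Arrays of opposite dye orientation correlated positively over all probes (mean Pearson r = 0.58, against 0.69 for arrays of the same orientation). The arrays thus likely share a direction, but this cannot tell AAE13 over ccdB from the reverse. AAE13 over ccdB is assumed because the series title names the AAE13 strain first. The sample titles of arrays 2 and 4 name ccdB first. If the ratios ran the other way, every direction below would be the opposite. If they were instead never turned, the signs the arrays share would follow the dye. Base 2 was inferred from the range of values, and every fold rests on it. The deposited array medians were 0.43, 0.76, -0.17 and 1.41 on arrays 1 to 4. Spot intensities were not analysed here, so the signal over background of each probe is unknown, and the number of arrays limits the precision. Copies of a pair can be nearly identical in their coding sequence, so each probe of a pair may have measured both transcripts to an unknown extent.

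With the arrays centred, the small subunit median lay below 0 on each array, further on arrays 1 and 2 than on arrays 3 and 4, and with values as deposited it was above 0 on array 4. The median of the 55 genes was -1.06 on array 1, -1.41 on array 2, -0.25 on array 3 and -0.28 on array 4. Every one of the 55 genes was below 0 on arrays 1 and 2, 39 were below 0 on array 3 and 44 on array 4. Of all named genes, 7.84%, 6.9%, 35.8% and 32.3% lay below the small subunit median on arrays 1 to 4. As deposited, the median was -0.62, -0.64, -0.42 and 1.13 on arrays 1 to 4, and that of all named genes was above it on each array, at 0.39, 0.78, -0.22 and 1.44.

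**Figure D1:**
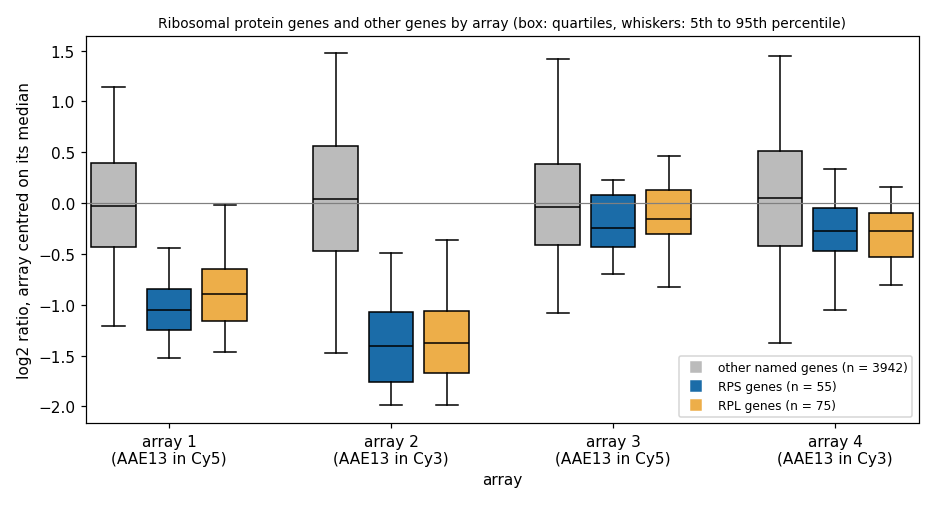
Log2 ratios (arrays centred on their medians, vertical axis) of other named genes, RPS genes and RPL genes on each of the 4 arrays, as boxes of the quartiles with the median as a line and whiskers from the 5th to the 95th percentile. The RPS medians are -1.06 and -1.41 on arrays 1 and 2 and -0.25 and -0.28 on arrays 3 and 4, and the RPL boxes lie close to them on every array. With values as deposited the RPS median on array 4 is instead 1.13.

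Over the 4 arrays, 20 of the 55 genes fell, 0 rose and 35 did not pass the test, which was limma's moderated test against 0 with Benjamini-Hochberg adjustment over all 4072 named genes and a threshold of 0.05. In the same fit 24.8% of all named genes passed, 11.8% falling and 13% rising, and 36.4% of the small subunit genes fell. The median of the gene means was -0.74, and 34 genes were below 0 on all 4 arrays (61.8%, against 23.5% of all named genes). The count of falls turned on single arrays. It was 2 when array 1 was dropped, 8 for array 2, 31 for array 3 and 3 for array 4. These are 3.64%, 14.5%, 56.4% and 5.45% of the members, beside 6.36%, 8.96%, 13.2% and 4.59% of all named genes that fell in the same fits. Without array 1 or array 4 the members' share of falls was thus near or below that of all genes. On values as deposited, limma called 0 members (2 at an unadjusted p under 0.05, beside 1383 of the 4072 named genes). There 19.6% of all named genes were called, as 1.35% fell and 18.3% rose. The median of the gene means was then -0.13, and that of all named genes 0.58.

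**Figure D2:**
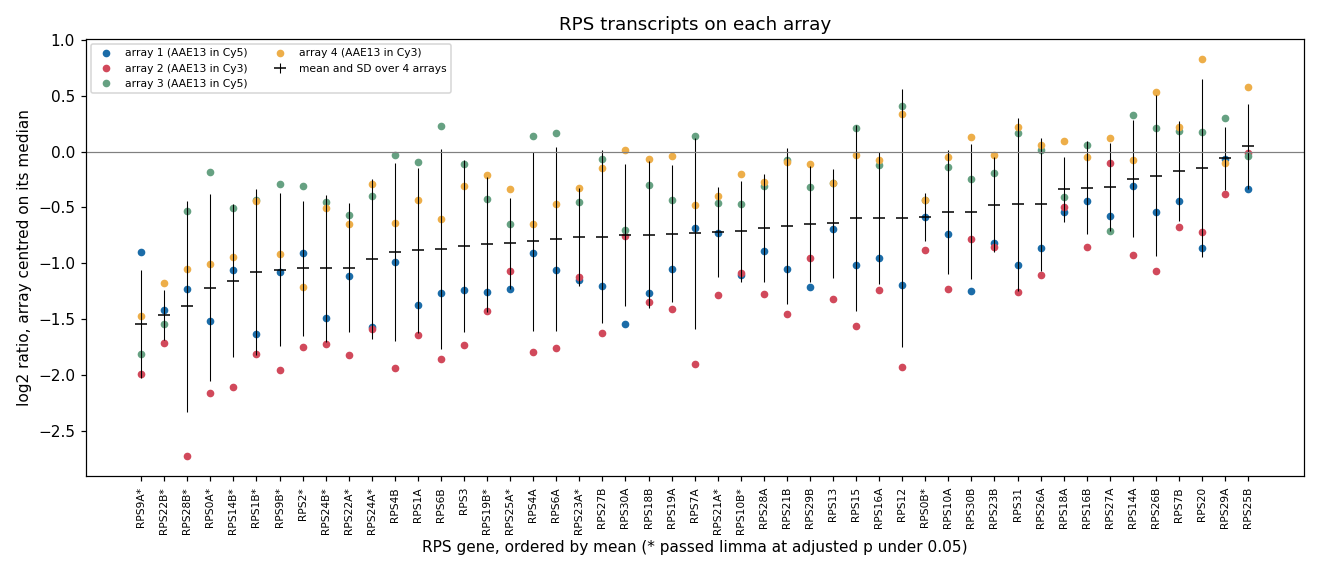
Log2 ratio (arrays centred on their medians, vertical axis) of 49 of the 55 RPS genes on the 4 arrays (coloured points), ordered by mean, with the mean and SD over the 4 arrays in black and an asterisk at the 17 of them that fell. RPS9A has the lowest mean at -1.54 and RPS25B the highest at 0.05. Points of arrays 3 and 4 lie above those of arrays 1 and 2 for most genes. With the arrays not centred no member passes.

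RPS9A and RPS22B were the lowest of the family and the only called members that also fell in each of the 4 fits leaving out 1 array. RPS9A encodes Rps9, a protein of the subunit body that affects decoding accuracy, and its log2 ratio was -0.90, -1.99, -1.82 and -1.47 on arrays 1 to 4. The mean of -1.54 ± 0.48 (SD, n = 4) corresponds to 2.92-fold lower, with a limma adjusted p of 0.00296. On array 1 RPS9A was above the small subunit median of -1.06. RPS22B, encoding Rps22 in the body, had -1.42, -1.71, -1.54 and -1.18. With the arrays centred it was thus at nearly the same level on every array. Its mean was -1.46 ± 0.23 (SD, n = 4), 2.76-fold lower (limma adjusted p = 0.00152). Relative to the small subunit median of each array, its SD was larger, at 0.47. Splicing of the RPS9A transcript is known to be inhibited by Rps9, and the RPS22B intron hosts a small nucleolar RNA. With the arrays not centred RPS9A was at -0.94 and RPS22B at -0.86, and neither passed (limma adjusted p = 0.103 and 0.138).

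RPS28B, RPS0A and RPS14B came next in order, but their arrays differed more. RPS28B encodes Rps28 of the subunit head, whose protein is known to promote decay of this same mRNA together with Edc3. Its log2 ratio was -1.23, -2.73, -0.53 and -1.05 on arrays 1 to 4, the value of array 2 being the lowest of any member on any array, with a mean of -1.39 ± 0.94 (SD, n = 4; limma adjusted p = 0.0234). RPS0A, encoding Rps0 at the junction of head and body, had -1.52, -2.16, -0.18 and -1.01, a mean of -1.22 ± 0.84 (SD, n = 4; limma adjusted p = 0.0266). RPS14B had -1.06, -2.11, -0.50 and -0.95, and a mean of -1.16 ± 0.68 (SD, n = 4; limma adjusted p = 0.019). Rps14 sits on the platform and is known to repress its own B copy. All 3 genes were below 0 on every array and highest on array 3.

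The other members of the body and platform that fell had means between -0.58 and -1.08. They included RPS1B at -1.08 ± 0.75, RPS9B at -1.06 ± 0.69, RPS24B at -1.04 ± 0.66 and RPS22A at -1.04 ± 0.58 (SD, n = 4; limma adjusted p from 0.0192 to 0.0303). RPS24A was at -0.96 ± 0.72, RPS23A at -0.76 ± 0.44, RPS21A at -0.72 ± 0.41 and RPS0B at -0.58 ± 0.21 (SD, n = 4; limma adjusted p from 0.0346 to 0.0412). Rps23 lies in the decoding centre, and Rps0 and Rps21 touch on the solvent side. Of these genes RPS0B changed sign with the arrays not centred, at 0.02. It passed in 0 of the 4 fits leaving out 1 array. RPS1B, RPS21A, RPS23A, RPS24A and RPS24B each passed in 1 of those fits.

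In the head, the beak-bearing upper part of the subunit that contacts tRNA, 6 of 21 genes fell (28.6%). In the body and platform 14 of 34 fell (41.2%), beside 11.8% of all named genes. Beside RPS28B the head genes that fell included RPS19B at -0.83 ± 0.60, RPS25A at -0.82 ± 0.41 and RPS10B at -0.71 ± 0.45 (SD, n = 4; limma adjusted p from 0.0239 to 0.0453). The median of the head genes minus that of the body and platform genes was 0.05, 0.38, -0.04 and 0.34 on arrays 1 to 4, a mean of 0.18 ± 0.21 (SD, n = 4). The arrays thus did not share 1 sign, and the mean difference was smaller than their spread.

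Of the 7 single-copy genes, 1 fell (14.3%, near the 11.8% of all named genes) and 6 did not pass. RPS2, encoding a protein at the mRNA entry channel known for suppressor mutations that change decoding accuracy, had -0.91, -1.75, -0.31 and -1.22 on arrays 1 to 4. Its mean was -1.05 ± 0.60 (SD, n = 4), 2.07-fold lower, with a limma adjusted p of 0.0204. RPS3, whose protein also lines the entry channel, had -1.24, -1.74, -0.11 and -0.31, and RPS13 had -0.69, -1.32, -0.28 and -0.28. These 2 genes were below 0 on every array but did not pass, at -0.85 ± 0.77 and -0.64 ± 0.49 (SD, n = 4; limma adjusted p = 0.0665 and 0.0667).

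The other 4 single-copy genes crossed 0. RPS15, a head protein needed for export of the subunit precursor from the nucleus, had -1.01, -1.56, 0.21 and -0.03 on arrays 1 to 4. RPS12 had -1.19, -1.93, 0.41 and 0.34, the widest span over arrays of any member by SD (1.16). RPS31, whose product is made as a fusion to ubiquitin, had -1.02, -1.26, 0.16 and 0.22. RPS20, a head protein, had -0.86, -0.72, 0.18 and 0.83, the last being the highest value of any member on array 4. Their means were -0.60, -0.59, -0.47 and -0.14, with limma adjusted p of 0.184, 0.304, 0.26 and 0.744.

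As a class, single-copy genes had a median of -0.60 and duplicated genes of -0.75. Of the 48 duplicated genes 19 fell (39.6%, beside 11.8% of all named genes). The single-copy median minus the duplicated median was 0.05, -0.19, 0.44 and 0.26 on arrays 1 to 4, a mean of 0.14 ± 0.27 (SD, n = 4), which is smaller than the spread between arrays. Of the A copies 9 of 24 fell (37.5%) and of the B copies 10 of 24 (41.7%), at medians of -0.74 and -0.75.

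The difference between the copies of a pair is taken within an array and does not depend on the centring. It was tested with limma over all 60 pairs of symbols in the table that differ only in a final A or B. Of the 24 small subunit pairs 2 passed, RPS14 and RPS25, in opposite directions, and 9 had an unadjusted p under 0.05. The unadjusted share over all 60 pairs is not given here, so the 9 cannot be read as an excess. Of all 60 pairs 13.3% passed (5% with A higher and 8.33% with B higher), and the 2 of 24 are no more than that share. All of the 60 but COX5 and NHP6 are ribosomal protein pairs, the 24 among them. The share is thus no background of other genes. The A copy had the higher mean in 14 pairs and the B copy in 10. In 11 pairs the difference had 1 sign on all 4 arrays (A higher in 5 and B higher in 6), and so it did in 38.3% of all 60 pairs.

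**Figure D3:**
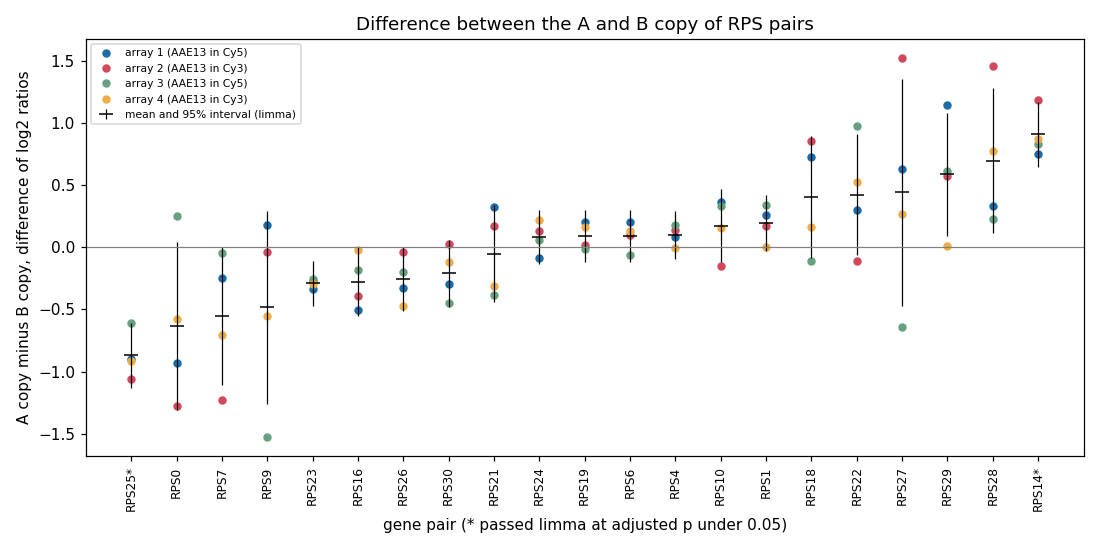
Difference between the log2 ratios of the A and B copy (vertical axis) for 21 of the 24 RPS pairs, with the 4 arrays as coloured points and the mean with its 95% interval from limma in black. RPS14 (0.91) and RPS25 (-0.87) lie at the ends, with all 4 arrays on 1 side of 0 and an asterisk for passing the test. Most other pairs lie closer to 0 or have arrays that differ widely, as RPS27 and RPS9 do.

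RPS14A was higher than RPS14B on every array, by 0.75, 1.19, 0.83 and 0.88 on arrays 1 to 4. The mean difference was 0.91 ± 0.19 (SD, n = 4), a ratio 1.88-fold higher for the A copy (limma adjusted p = 0.00356). RPS14A itself had log2 ratios of -0.31, -0.93, 0.33 and -0.07 and did not pass against 0, at -0.24 ± 0.53 (SD, n = 4; limma adjusted p = 0.456), whereas the B copy given above fell. In wild-type yeast the A copy supplies most of the Rps14 protein.

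The RPS25 pair ran the other way. RPS25A had -1.23, -1.07, -0.65 and -0.34 on arrays 1 to 4, and RPS25B had -0.33, -0.01, -0.04 and 0.58. The A copy was below the B copy on each array, with differences of -0.90, -1.06, -0.61 and -0.92 and a mean of -0.87 ± 0.19 (SD, n = 4; 1.83-fold; limma adjusted p = 0.00356). With the arrays centred and all 4 used, RPS25B was the only member with a mean above 0, at 0.05 ± 0.38 (SD, n = 4). Its mean was -0.13 without array 4, and with values as deposited other members, RPS20 and RPS7B among them, were also above 0. RPS25B did not pass against 0 (limma adjusted p = 0.871). Rps25 is a head protein known to be needed for initiation at some viral internal entry sites. Both pair calls held in every fit leaving out 1 array, with adjusted p up to 0.0382 for RPS14 and 0.0408 for RPS25.

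The next largest pair differences did not pass. RPS28A was above RPS28B on all arrays, by 0.34, 1.46, 0.23 and 0.78, a mean of 0.70 with a 95% interval from 0.11 to 1.29 (limma adjusted p = 0.108, or 0.0481 with the dye orientation as a term). RPS28A itself was at -0.69 ± 0.48 (SD, n = 4; limma adjusted p = 0.0544). For RPS0 the A copy was below the B copy on arrays 1, 2 and 4 and above it on array 3, with a mean of -0.63 and an interval from -1.31 to 0.04 (adjusted p = 0.168). Without array 3 the RPS0 difference passed, at -0.93 (limma adjusted p = 0.0199).

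RPS29 and RPS7 complete the 6 widest pairs. RPS29A, encoding a zinc-binding head protein, had -0.07, -0.38, 0.30 and -0.10 on arrays 1 to 4, and RPS29B had -1.21, -0.96, -0.31 and -0.11. The copies were far apart on array 1 and within 0.01 of each other on array 4, and the mean difference was 0.59 (95% interval 0.09 to 1.08; limma adjusted p = 0.108). RPS7A had -0.68, -1.90, 0.14 and -0.48, and RPS7B had -0.44, -0.67, 0.19 and 0.22. The A copy was lower throughout, by a mean of -0.56 ± 0.53 (SD, n = 4; limma adjusted p = 0.158).

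A smaller but even difference was seen in RPS23, chosen after its values were seen. RPS23A was below RPS23B by -0.33, -0.27, -0.25 and -0.29 on arrays 1 to 4, the narrowest spread of any small subunit pair (SD 0.03). The mean was -0.29 with a 95% interval from -0.47 to -0.11, and it did not pass (limma adjusted p = 0.0601). RPS23A fell and RPS23B did not pass against 0, but the test of the difference itself was not passed.

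The pairs with the smallest mean differences were RPS21, RPS24, RPS19 and RPS6. RPS24A and RPS24B differed by 0.08 (95% interval -0.14 to 0.30), RPS19A and RPS19B by 0.09 (-0.11 to 0.30) and RPS6A and RPS6B by 0.09 (-0.12 to 0.30). Their intervals leave room for differences of up to 0.30 on the log2 scale. The small mean of RPS21, -0.05, hid opposite signs, with the A copy above by 0.32 and 0.17 on arrays 1 and 2 and below by -0.39 and -0.31 on arrays 3 and 4 (95% interval -0.44 to 0.34). RPS6 encodes the phosphoprotein of the subunit that is modified downstream of TORC1. RPS6A had -1.06, -1.76, 0.17 and -0.47, and RPS6B had -1.27, -1.86, 0.23 and -0.60, and neither passed (-0.78 ± 0.82 and -0.88 ± 0.90; SD, n = 4; limma adjusted p = 0.0968 and 0.0849). RPS19A was at -0.74 ± 0.61 and RPS21B at -0.67 ± 0.70, and these did not pass either (SD, n = 4; limma adjusted p = 0.0649 and 0.106).

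Both copies fell in 5 pairs (RPS0, RPS9, RPS22 and RPS24 among them), 1 copy in 9 pairs and neither in 10. The last included RPS4, RPS6, RPS7, RPS16, RPS18, RPS26, RPS27, RPS29 and RPS30. Among the small subunit pairs RPS27 had the widest spread of the difference over arrays. Its A minus B difference was 0.63, 1.53, -0.65 and 0.27 on arrays 1 to 4. RPS9 was next, with 0.18, -0.03, -1.52 and -0.56. On arrays 1 and 2 the RPS9 copies were thus within 0.18 of each other, and on array 3 the A copy was far below the B copy, at -1.82 against -0.29.

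Most of the scatter between arrays was common to the family. Of the members' variation between arrays, 74.7% was the mean shift of the family from array to array. The median SD of a member over arrays was 0.60, and 0.23 after the small subunit median of each array had been subtracted. Not every gene followed the shift. On that subtraction the SD of RPS9A rose from 0.48 to 0.76 and that of RPS22B from 0.23 to 0.47. The small subunit median splits the family on each array by construction, so some genes would keep to 1 side without any steady difference. Relative to it, 13 genes were above on all 4 arrays and 10 below. Those above were led by RPS25B (0.80 above on average), RPS29A (0.69), RPS20 (0.60), RPS7B (0.57), RPS26B (0.53) and RPS14A (0.50), and those below by RPS22B (-0.72), RPS28B (-0.64) and RPS14B (-0.41). Both copies of RPS16 and RPS26 were above and both copies of RPS22 and RPS24 below. Across the 55 genes, Pearson's r between arrays ran from 0.13 (arrays 2 and 3) to 0.71 (arrays 2 and 4), and across the 24 pair differences from 0.15 to 0.78, as a description of genes that share arrays and are not independent replicates.

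Dye orientation was compared as well, 2 arrays against 2. The median difference between arrays with AAE13 in Cy5 and arrays with AAE13 in Cy3 was 0.20 over members and -0.03 over all named genes. With the dye orientation as a term, limma called this difference in 0 members, as in 0% of all named genes. At an unadjusted p under 0.05 it was found in 1 of the 55 members, RPS27A at -0.66, and in 721 of the 4072 named genes. With the dye term in the fit, 14 members fell against 0, all of them among the 20, and 15.1% of all named genes fell.

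RPS14B and RPS22A, adjacent in the RefSeq annotation with 0 genes between them, were at -1.16 and -1.04.

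The large subunit genes lay close to the small subunit genes on each array. Of 75 RPL genes, 19 fell (25.3%, beside 11.8% of all named genes) and 1 rose (1.33%, beside 13%). The median of the RPL gene means was -0.65. Their array medians were -0.90, -1.38, -0.15 and -0.27, and with the arrays not centred the median of their gene means was -0.04. The small subunit median minus the large subunit median was -0.16, -0.03, -0.10 and -0.00 on arrays 1 to 4, a mean of -0.07 ± 0.07 (SD, n = 4). The RPL genes with the largest called changes were RPL15A at -1.57 ± 0.42 and RPL8A at -1.51 ± 0.96 (SD, n = 4; limma adjusted p = 0.00228 and 0.0181). The 1 that rose was RPL15B, at 0.56 ± 0.20 (SD, n = 4; limma adjusted p = 0.0452).

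Both genes of the other proteins listed as bound to the 40S subunit fell, beside 11.8% of all named genes. ASC1, the yeast relative of the scaffold protein RACK1 on the back of the head, had -1.34, -2.71, -0.74 and -1.64 on arrays 1 to 4, a mean of -1.61 ± 0.82 (SD, n = 4; limma adjusted p = 0.00926), lower than every RPS mean. STM1, which holds inactive ribosomes together, was at -0.92 ± 0.74 (SD, n = 4; limma adjusted p = 0.0489). Both stayed below 0 with the arrays not centred, STM1 at -0.31.

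The factors that build the subunit fell in part. Of 35 genes of the small subunit processome, the particle that folds and cuts the 18S precursor, 10 fell (28.6%) and 0 rose. Of all named genes 11.8% fell and 13% rose. The processome median of -0.31 turned to 0.30 with the arrays not centred. UTP22 was at -1.34 ± 0.35 and NOP58, a core protein of box C/D small nucleolar particles, at -1.32 ± 1.17 (SD, n = 4; limma adjusted p = 0.00304 and 0.0486). Of 13 later assembly factors, 3 fell (23.1%) and 0 rose (median -0.39, or 0.22 not centred). Those that fell included RRP12 at -1.15 ± 0.82 and the helicase gene PRP43 at -0.92 ± 0.39 (SD, n = 4; limma adjusted p = 0.0307 and 0.0143). The other was YAR1, at -0.63 ± 0.18 (SD, n = 4), whose product escorts Rps3 to the assembling subunit. Of 13 initiation factor genes whose products join the 40S subunit in the 43S complex, limma called 0 in either direction (0 also at an unadjusted p under 0.05), with a median of -0.15 that turned to 0.46 with the arrays not centred.

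Of 12 regulators of ribosomal protein genes, 2 rose, 1 fell and 9 did not pass, shares of 16.7% and 8.33% that are near the 13% and 11.8% of all named genes. HMO1, an HMG-box protein bound at many of these promoters, was at 1.01 ± 0.39, and YAK1, a kinase that acts in repressing them, at 0.86 ± 0.25 (SD, n = 4; limma adjusted p = 0.0107 and 0.0121). The gene that fell was LST8, a TOR complex subunit, at -0.85 ± 0.19 (SD, n = 4; limma adjusted p = 0.0107). Of the regulators that did not pass, RAP1 was at 0.20 ± 0.11, FHL1 at -0.55 ± 0.47, IFH1 at 0.18 ± 0.59 and SFP1 at 0.29 ± 0.12 (SD, n = 4; limma adjusted p from 0.0975 to 0.616). With the arrays not centred, FHL1 was at 0.06.

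**Figure D4:**
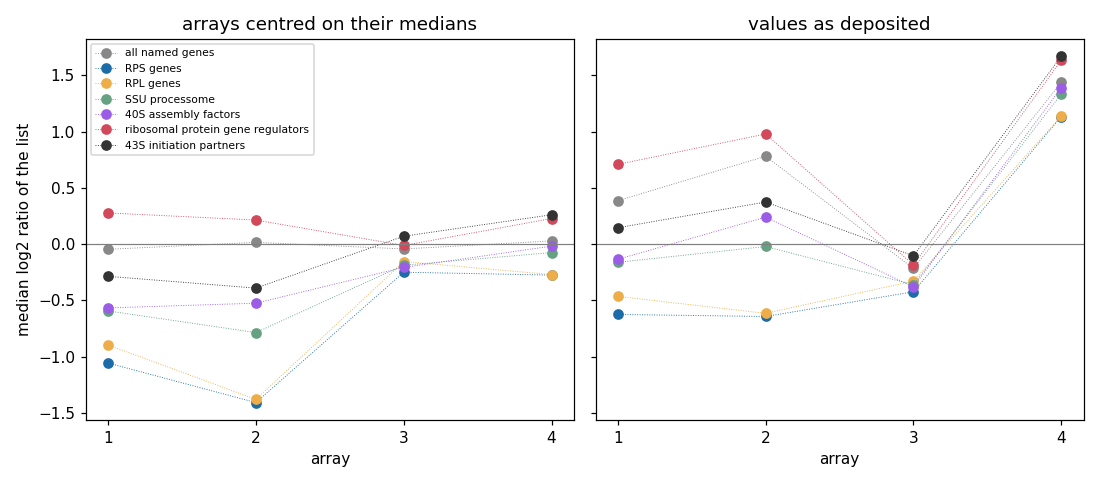
Median log2 ratio (vertical axis) of the RPS genes and of related gene lists on arrays 1 to 4, with the arrays centred on their medians (left) and with values as deposited (right). Dotted lines join points of a list and mark no order of the arrays. The list of other 40S-bound proteins (2 genes) is not drawn. Of the lists drawn, RPS and RPL have the lowest medians on arrays 1, 2 and 4 on the left. On the right every list is above 0 on array 4, where the RPS median is 1.13.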

How the data were processed

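Yeast cDNA of 4 cultures per strain was primed with oligo-dT, coupled to Alexa dyes (the labels name the channels Cy5 and Cy3) and hybridised to 4 two-colour arrays, per the labels' protocols. The authors deposited log2 ratios (base inferred) for 6256 probes, with 4 missing values. No source used here gives the normalization, software or ratio direction. The platform annotation names 1 gene for 4075 probes. 125 older symbols were updated through RefSeq (assembly R64), which served only for naming and for neighbouring genes. Probes of a gene were averaged (3 genes), and 4072 genes measured on at least 3 arrays were kept.

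Each array was centred on its median. Gene ratios, and A minus B differences over 60 pairs, went through limma 3.58.1 under R 4.3.3 (lmFit, then eBayes), as two-sided tests against 0, p adjusted by Benjamini-Hochberg, called under 0.05. SDs are over arrays. Lists were described, not tested. Both fits were tested on simulated data with known changes.

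Members, lists and tests were chosen with earlier results of these data known. The rule for naming took single-copy and called members, both copies of the 6 widest and 4 narrowest pairs, and the 2 largest called changes of each related list. Some members that it covers are counted but not reported here by name. RPL15B, YAR1, LST8, RAP1, FHL1, IFH1, SFP1 and the pairs RPS9, RPS23 and RPS27 were singled out after their values were seen. Alternatives varied direction, dye term, centring, scaling, missing values, moderation, weights, threshold and arrays. Figures used Python 3.11.15 and matplotlib 3.10.9.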

Additional observations from a re-analysis of the deposited data

How the results depend on the processing

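Only what the settings change is given here. With arrays 2 and 4 sign-turned, as if every ratio were Cy5 over Cy3, limma called 0 of all named genes (154 at an unadjusted p under 0.05), 0 members and 0 small subunit pairs (both 0 also unadjusted). The median of the members was then 0.10, and the head minus body difference -0.072. Called members above 0 under that reading included RPS0A at 0.37, RPS0B at 0.074, RPS1B at 0.047, RPS2 at 0.44, RPS9A at 0.19, RPS9B at 0.37, RPS14B at 0.38, RPS21A at 0.13, RPS22A at 0.20, RPS24B at 0.073 and RPS28B at 0.51. The pair differences also turned, to -0.12 for RPS14 and 0.12 for RPS25. With the arrays not centred, 0 members were called, their median was -0.13 and RPS0B was at 0.023. Without moderation 143 of all named genes and 1 member, RPS22B but not RPS9A, were called. The dye orientation difference was then called in 1 gene. At an adjusted p under 0.01, 390 genes and 2 members were called. Of the members 3.64% then fell, beside 3.83% of all named genes. At 0.1, 34 members (61.8%, beside 18.1% of all genes that fell) and 4 pairs were called. Array weights gave 4 pairs. Leaving out 1 array, all named genes called ranged from 427 to 1045, members from 2 to 31 and pairs from 2 to 3. Counts stayed within 1.5 times of the reported ones with a dye term, scaled arrays, robust moderation, all 4 arrays required, centring on named genes or the first probe of a gene. The RPS14 and RPS25 calls held in every setting tried but the sign-turned one. Of the named members that did not pass, 7 changed sign when not centred. The cause of these changes was not tested. No paired analysis was possible because each ratio is already the paired value of 1 array.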
